A study of Arabidopsis thaliana with 8 samples.

Results

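Whole seedlings of *Arabidopsis thaliana* labelled as *HRE1β* overexpressors (*HRE1β* OX) were compared with wild-type (WT) seedlings, with 2 libraries in each group. Every gene that passed a filter on low counts was taken, which left 22348 of the 33028 names in the count tables, and the genes are described by pathway and function. *HRE1β* OX plants are of the Columbia (Col-0) ecotype and carry the complete coding sequence of *HRE1β*, a splicing variant of *AtERF73*/*HRE1*, brought in by Agrobacterium in the binary vector pFGL571. They were selected on kanamycin as homozygous lines, and the sources used here give neither the promoter in plants nor whether 1 line or several were pooled. WT plants are Col-0 with no transgene. Both groups were grown in air on Murashige and Skoog agar with sucrose at 22 °C, in short days of 8 h light and 16 h dark, and received no treatment. The labels give an age of 14 days after germination for both groups, whereas the methods of the study give a younger age. Those methods also move seedlings to soil and long days from that younger age. The medium and day length at 14 days are therefore not settled. RNA was measured by QuantSeq, a method that reads polyadenylated transcripts from their 3′ ends. The series also holds 2 libraries of *HRE1α* OX, the shorter variant, and 2 labelled as overexpressing *AtRH17*, a DEAD-box RNA helicase, and their values are given only where they bear on a gene. The *HRE1α* OX libraries also entered the filter, the scaling and the estimate of spread in the main fit. No label says that the replicates came from separate cultures, so the p-values measure the spread between these samples, which may be technical.

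HRE1 belongs to the group VII ethylene response factors (ERFs), which bind DNA through an AP2/ERF domain and switch on genes for life with little oxygen. In air, plant cysteine oxidases (PCOs) oxidize a cysteine at the N-terminus of these factors, and the N-degron pathway then degrades them. Under hypoxia the factors persist and induce fermentation enzymes, hemoglobin and the PCO genes themselves, which closes a feedback loop. Of the splicing variants of *HRE1*, HRE1β carries the N-terminus that the N-degron pathway targets.

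Primers of the study were matched by position to the forward-strand gene *HRE1* (AT1G72360) in the TAIR10.1 assembly, from 27241696 to 27242968 on chromosome 1. They are shown because they place the coding sequence and the RT-PCR amplicon relative to the 3′ end that QuantSeq counts. The capitals mark the start codon in the forward primer and the complement of the stop codon in the reverse primer of the coding sequence, and the remaining primer was used for quantitative RT-PCR. Only the forward primer is particular to *HRE1β*, as the study lists both reverse primers for *HRE1α* too. The coding-sequence primers come from the cloning of other constructs, and those of the plant construct are not given in the sources used here.
HRE1β ORF forward: ATGtgcggaggagctgtaat
HRE1β ORF reverse: TCAggaccatagacccatgt
HRE1β qPCR reverse: gccaaactcgaactcctttg
The forward primer lies at chr1:27241904-27241923 on the forward strand. The reverse primer, at chr1:27242758-27242777 on the reverse strand, leaves 191 bases between the stop codon and the annotated end of the gene. The RT-PCR primer lies at chr1:27242273-27242292 on the reverse strand, 676 bases before that end. Whether a transcript of the transgene, whose end lies in the vector, gave counts on this gene was not tested.

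*HRE1* itself was not raised under the *HRE1β* OX label. Its level, in counts per 1000000 counts after TMM scaling (CPM), was 34.5 and 34.8 CPM in *HRE1β*-labelled and 50.1 and 38.5 CPM in WT libraries (log2 fold change −0.36 ± 0.11 (SE), adjusted p = 0.022, edgeR). The WT libraries lay above both, and the groups did not overlap. The study chose its *HRE1β* OX lines by quantitative RT-PCR. It also used that method beside its RNA-Seq and reported *HRE1β* as raised in *HRE1β* OX seedlings. Neither measurement was used here. *HRE1α* OX libraries held 171 and 198 CPM and *AtRH17*-labelled libraries 43.5 and 35.8 CPM, so the only libraries with an evident excess of *HRE1* were those of *HRE1α* OX. Without WT replicate 1 its log2 fold change was −0.16 (adjusted p = 0.27, edgeR). *AtRH17* (AT2G40700) was at 5.08 and 5.05 CPM in the libraries labelled *AtRH17* OX, 9.33 and 9.44 CPM in *HRE1β*-labelled and 9.26 and 8.36 CPM in WT libraries, so both libraries with its label lay below all of these others (adjusted p = 0.0014 for the *HRE1β*-labelled libraries against them, edgeR). In neither case was the count of the overexpressed gene raised in the libraries with its label. Whether transcripts of the transgenes were counted on these genes was not tested. The libraries are therefore called *HRE1β*-labelled and *AtRH17*-labelled throughout, and every direction below is that of the *HRE1β*-labelled libraries relative to WT.

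The libraries held 25657217 to 30606058 counts each, and 3 counts, the floor used for genes not counted in a group, correspond to 0.098 to 0.1169 CPM. Across genes, which are not replicates, the log2 CPM of the *HRE1β*-labelled libraries correlated with r = 0.9928, those of the WT libraries with r = 0.9901, and libraries of different groups with 0.9739 to 0.9751. At a Benjamini-Hochberg adjusted p under 0.05, 2516 genes were higher (11.3% of those tested) and 2510 were lower (11.2%). Most of these differences were small, since 78.8% were under 2-fold and the median size of a called log2 fold change was 0.58. Past 2-fold, 715 genes were higher (3.2%) and 351 were lower (1.57%), and among them 232 were higher and 70 lower past 4-fold. The groups did not overlap in any of these 715 and 351 genes. Where separate groups are mentioned below for a gene called past 2-fold, this adds nothing to its call. The share of genes with separate groups among all genes tested is not given here. Genes at low levels made up much of this set, with 376 of the 715 higher genes and 127 of the 351 lower genes under 5 CPM on average in both groups. The share of called genes was even over the 5 nuclear chromosomes, between 10.35% and 12.14% for higher and between 11.02% and 11.68% for lower genes. All genes tested had a median log2 fold change of 0.01, against which the medians of the gene lists below can be read. Counts of called members can be read against the shares of all genes, 11.3% higher and 11.2% lower. The 27 lists were written from general knowledge, with earlier results of these data known.

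**Figure D1:**
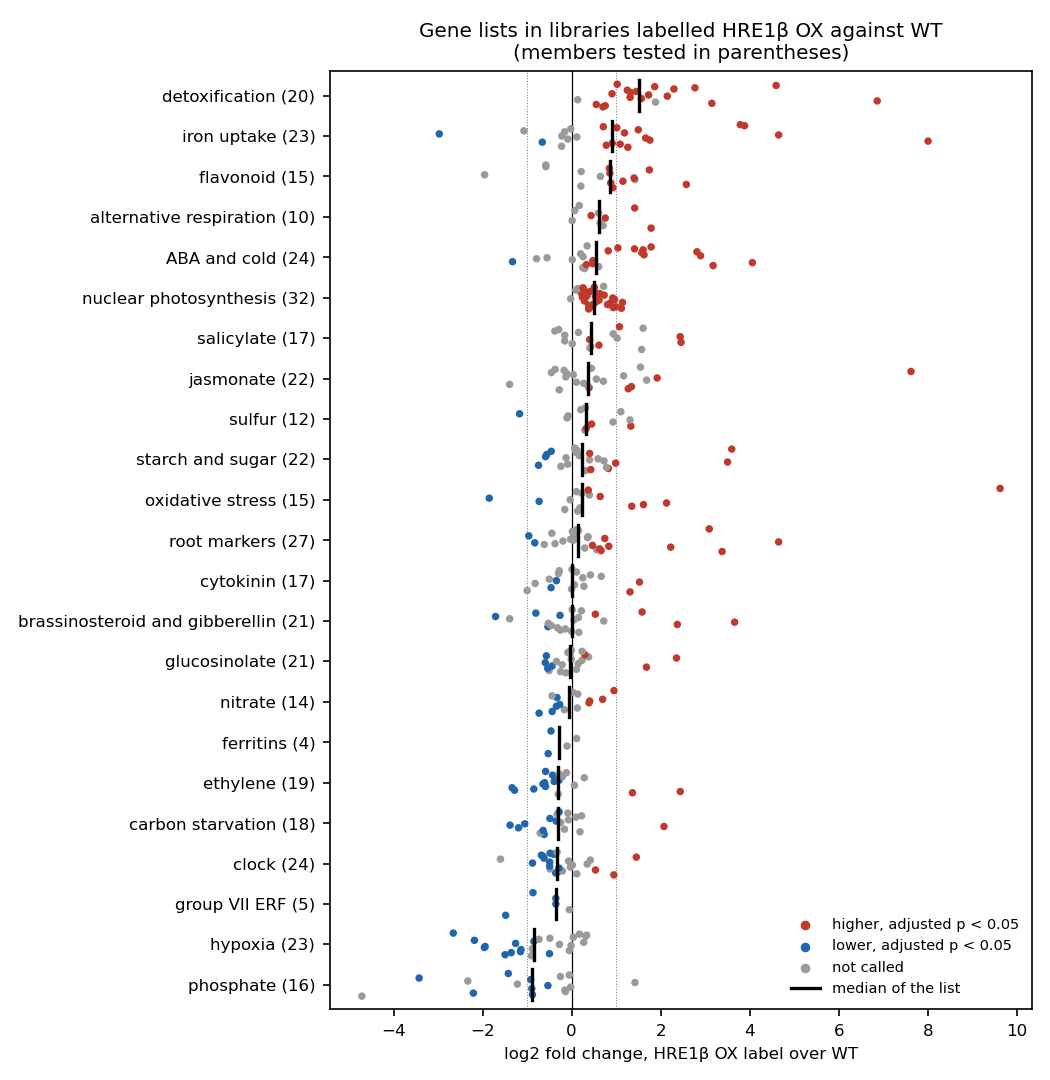
Log2 fold changes of the members of 23 gene lists, HRE1β-labelled libraries over WT. Each point is a gene, red if higher, blue if lower and grey if not called at an adjusted p of 0.05 (edgeR), the black bars are list medians and the dotted lines mark 2-fold. Medians run from 1.51 in the detoxification list to −0.89 in the phosphate list. Points beyond 7 are genes counted in neither WT library, whose fitted values depend on the prior count.

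Among genes past 2-fold with at least 5 CPM in the higher group, the 12 highest included the iron deficiency genes *IRT1* and *bHLH39*, the seed genes *CRA1* and *M17*, the glucosyltransferase gene *UGT74E2*, all described below, and 3 overlapping genes of chromosome 2. *AT1G13609*, annotated as defensin-like, was at 8.16 and 4.97 CPM in *HRE1β*-labelled and 0.0358 and 0 CPM in WT libraries, a ratio of counts of 367 (counting interval 65.5 to 14552). *AT4G12490*, of the lipid-transfer protein superfamily, was at 16.6 and 14.5 CPM in *HRE1β*-labelled and 0.322 and 0.0691 CPM in WT libraries (log2 fold change 6.29 ± 0.36 (SE), adjusted p = 1.9e-12, edgeR). A close neighbour in rank, *AT3G28510*, which codes for an AAA-type ATPase, was at 9.59 and 6.74 CPM in *HRE1β*-labelled and 0.0358 and 0.207 CPM in WT libraries. In each of these genes both *HRE1β*-labelled libraries lay above both WT libraries, as the choice of the 12 required. *AT5G35660*, coding for a glycine-rich protein, had 13.7 and 4.74 CPM in *HRE1β*-labelled against 0.0358 and 0.138 CPM in WT libraries (log2 fold change 6.64 ± 0.78), with the *HRE1β*-labelled libraries well apart from each other. Side by side on chromosome 2 lie *AT2G30760*, *AT2G30766* and *CYP71A13*, whose annotated spans overlap, so that reads may be shared among them. *AT2G30766*, a gene from 13107583 to 13110480, was at 48.3 and 45.8 CPM in *HRE1β*-labelled and 2.25 and 2.52 CPM in WT libraries (log2 fold change 4.30 ± 0.17 (SE), adjusted p = 3.4e-15, edgeR). *CYP71A13*, an enzyme of camalexin synthesis, was at 7.64 and 6.58 CPM in *HRE1β*-labelled and 0.286 and 0.207 CPM in WT libraries, and *AT2G30760* was at 11.8 and 12.1 CPM in *HRE1β*-labelled and 0.536 and 0.380 CPM in WT libraries. *AT5G35660* lost the call without WT replicate 1 or 2 (8.5e-42 to 0.075), the range in parentheses being that of the adjusted p over all alternatives run.

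The 12 lowest genes began with *MRD1*, *AT1G07887* and *HEI10*, whose spans overlap on chromosome 1 between 19963047 and 19966952, so that reads may be shared among them. *MRD1* was at 1.99 and 0.526 CPM in *HRE1β*-labelled and 105 and 87.5 CPM in WT libraries, a level that *AT1G07887* repeats nearly count for count. *HEI10*, a factor of meiotic crossing over, was at 1.84 and 1.87 CPM in *HRE1β*-labelled and 46.4 and 40.8 CPM in WT libraries (log2 fold change −4.55 ± 0.17 (SE), adjusted p = 9.1e-16, edgeR). The *AtRH17*-labelled libraries held 56.3 and 58.1 CPM of *HEI10* and the *HRE1α* OX libraries 1.51 and 1.79 CPM, so the low level was shared by the libraries of both *HRE1* variants. *AT5G44440*, a berberine bridge enzyme-like oxidase, was at 3.69 and 1.35 CPM in *HRE1β*-labelled and 26.5 and 25.2 CPM in WT libraries (log2 fold change −3.39 ± 0.34 (SE), adjusted p = 0.0005, edgeR). Cell wall genes followed. *FLA6*, a fasciclin-like arabinogalactan protein, was at 0.978 and 0.691 CPM in *HRE1β*-labelled and 7.72 and 6.70 CPM in WT libraries (log2 fold change −3.12 ± 0.31 (SE), adjusted p = 2.7e-08, edgeR). *XTH15*, a xyloglucan endotransglucosylase, was at 33.0 and 22.5 CPM in *HRE1β*-labelled and 210.2 and 199 CPM in WT libraries (log2 fold change −2.88 ± 0.15 (SE), adjusted p = 6.7e-08, edgeR), and its counts cannot be told apart from those of the overlapping *AT4G14120*. Also in this set were *PR-1-LIKE* at 1.99 and 1.68 CPM in *HRE1β*-labelled against 8.73 and 13.1 CPM in WT libraries, and the noncoding RNAs *AT5G03615* and *AT3G01845*. Both *HRE1β*-labelled libraries lay below both WT libraries in each of them, again as the choice required. One gene was picked after its values were seen, *AT5G26270*, which codes for an uncharacterized protein. It was at 12.2 and 14.5 CPM in *HRE1β*-labelled, 60.4 and 63.1 CPM in WT, 62.9 and 57.8 CPM in *HRE1α* OX and 130.3 and 166 CPM in *AtRH17*-labelled libraries (log2 fold change −2.21 ± 0.11 (SE), adjusted p = 1.2e-13, edgeR, against WT).

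The group VII ERFs were lower in the *HRE1β*-labelled libraries, and so were the genes of oxygen sensing, whereas the fermentation genes did not pass the test. Of the 5 group VII members, 4 were lower and 0 higher. *RAP2.3* (*EBP*, AT3G16770), the most abundant of them, was at 1262 and 1265 CPM in *HRE1β*-labelled and 3628 and 3441 CPM in WT libraries (log2 fold change −1.48 ± 0.08 (SE), adjusted p = 2.4e-13, edgeR). *RAP2.2* was at 77.1 and 68.6 CPM in *HRE1β*-labelled and 123 and 143 CPM in WT libraries (log2 fold change −0.87 ± 0.09 (SE), adjusted p = 8.6e-08, edgeR). *RAP2.12*, which with *RAP2.2* acts early in the low-oxygen response, was at 116 and 114 CPM in *HRE1β*-labelled and 148 and 146 CPM in WT libraries (log2 fold change −0.36 ± 0.08 (SE), adjusted p = 0.0018, edgeR). The groups did not overlap in any of the 3 genes. *HRE2* was at 0.339 and 1.32 CPM in *HRE1β*-labelled against 1.50 and 0.242 CPM in WT libraries, and the groups overlapped.

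Of 23 hypoxia genes tested out of 25 listed, 11 were lower and 0 higher, 9 of them past 2-fold, with a list median of −0.85. *PCO1* (AT5G15120) and *PCO2* (AT5G39890), the oxygen sensors of the N-degron pathway, were both lower. *PCO1* was at 26.1 and 28.4 CPM in *HRE1β*-labelled and 114 and 98.3 CPM in WT libraries (log2 fold change −1.96 ± 0.10 (SE), adjusted p = 8.9e-14, edgeR), and *PCO2* at 6.43 and 7.30 CPM in *HRE1β*-labelled and 28.5 and 24.5 CPM in WT libraries (log2 fold change −1.94 ± 0.13 (SE), adjusted p = 4.6e-11, edgeR). *LBD41*, a transcription factor induced by low oxygen, was at 14.7 and 14.7 CPM in *HRE1β*-labelled and 63.2 and 71.0 CPM in WT libraries (log2 fold change −2.19 ± 0.10 (SE), adjusted p = 6.4e-14, edgeR). *AT3G10040*, a trihelix factor that limits RAP2.12 in a feedback loop, was at 5.15 and 7.01 CPM in *HRE1β*-labelled and 17.7 and 13.7 CPM in WT libraries (log2 fold change −1.36 ± 0.18 (SE), adjusted p = 3.5e-06, edgeR). *HB1*, a hemoglobin that scavenges nitric oxide, was at 123 and 93.9 CPM in *HRE1β*-labelled against 229 and 162 CPM in WT libraries (log2 fold change −0.85 ± 0.20 (SE), adjusted p = 0.033, edgeR). The ethylene receptor *ETR2* had a log2 fold change of −1.26 ± 0.13 and the unnamed hypoxia genes *AT1G33055*, *AT4G10270*, *AT4G27450* and *AT3G10020* had −1.50, −1.15, −1.14 and −0.50. *HB1* lost the call with upper-quartile factors and with quantile normalization (adjusted p 1.2e-15 to 0.068).

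Fermentation genes divided the WT libraries instead of the groups. *ADH1*, alcohol dehydrogenase, was at 18.2 and 17.3 CPM in *HRE1β*-labelled and 50.4 and 16.1 CPM in WT libraries (adjusted p = 0.45, edgeR), so the groups overlapped. *PDC1* (AT4G33070), pyruvate decarboxylase, was at 6.997 and 4.64 CPM in *HRE1β*-labelled and 16.6 and 4.84 CPM in WT libraries (adjusted p = 0.5, edgeR). WT replicate 1 was the high library in both, and also in the sucrose synthase genes *SUS1*, at 22.0 and 17.9 CPM in *HRE1β*-labelled against 24.1 and 11.2 CPM in WT libraries, and *SUS4*, at 1.73 and 1.05 CPM in *HRE1β*-labelled against 13.4 and 4.08 CPM in WT libraries. *SUS4* passed the test (log2 fold change −2.66 ± 0.66 (SE), adjusted p = 0.043, edgeR). Without WT replicate 1 the median of the hypoxia list was −0.16 and 2 members were higher, whereas without WT replicate 2 it was −1.15. The PCO genes, *LBD41*, *AT3G10040* and *RAP2.3* kept their call in every alternative run. *SUS4* lost the call without *HRE1β*-labelled replicate 1 or 2 and in a fit of both groups alone (adjusted p 3.7e-14 to 0.24).

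**Figure D2:**
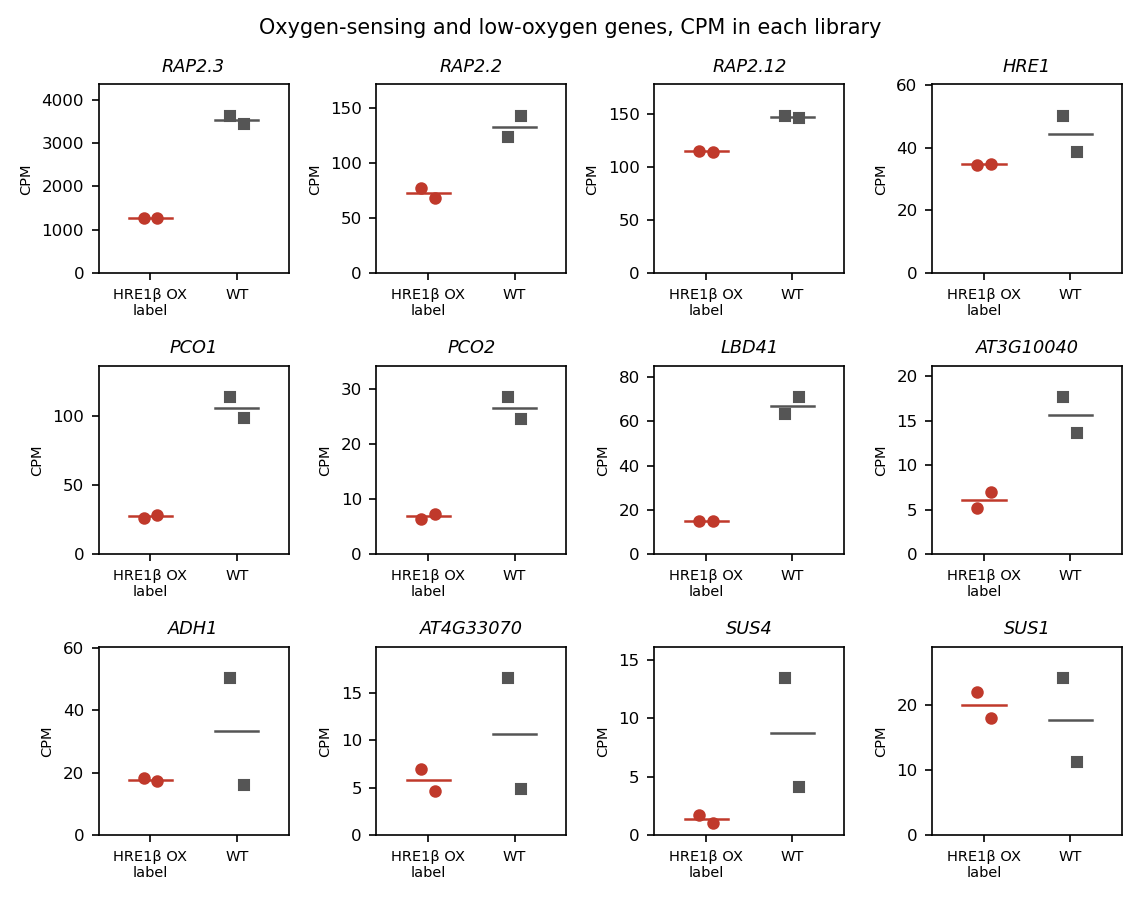
CPM of 12 oxygen-sensing and low-oxygen genes in each library, with the 2 HRE1β-labelled libraries left and the 2 WT libraries right; horizontal lines are group means and every axis starts at 0. PCO1 lies at 26.1 and 28.4 CPM in *HRE1β*-labelled against 114 and 98.3 CPM in WT libraries, whereas ADH1, AT4G33070 (PDC1) and SUS1 overlap because WT replicate 1 lies above WT replicate 2.

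Genes of iron acquisition were higher in the *HRE1β*-labelled libraries. Arabidopsis roots reduce ferric iron at the surface with the reductase FRO2 and take it up through the transporter IRT1, and the factor FIT with bHLH partners of group Ib switches both on when iron is short. In whole seedlings, more cells of a type and more RNA per cell cannot be told apart, and this holds for every gene below that is used in 1 organ. Of 23 tested members of 25 listed, 14 were higher and 2 lower, 11 and 1 of them past 2-fold, with a median of 0.91. *IRT1* was at 10.5 and 9.18 CPM in *HRE1β*-labelled and 0.286 and 0.484 CPM in WT libraries (log2 fold change 4.65 ± 0.36 (SE), adjusted p = 4.4e-10, edgeR). *FRO2* was at 5.57 and 3.98 CPM in *HRE1β*-labelled and 1.39 and 1.42 CPM in WT libraries (log2 fold change 1.76 ± 0.33 (SE), adjusted p = 0.00031, edgeR), and *FIT* (*FRU*) at 8.28 and 7.70 CPM in *HRE1β*-labelled and 3.11 and 1.94 CPM in WT libraries (log2 fold change 1.66 ± 0.27 (SE), adjusted p = 6e-05, edgeR). All 3 had both *HRE1β*-labelled libraries above both WT libraries, as did every gene called higher past 2-fold. Among the group Ib factors, *bHLH39* was at 5.83 and 5.95 CPM in *HRE1β*-labelled and 0.465 and 0.380 CPM in WT libraries (log2 fold change 3.79 ± 0.41 (SE), adjusted p = 1.2e-07, edgeR), and *bHLH38* and *BHLH101* had log2 fold changes of 3.89 ± 0.95 and 1.09 ± 0.28. *CYP82C4*, a P450 of coumarin synthesis, was counted 45 and 19 times in the *HRE1β*-labelled libraries and in neither WT library, at least 11.0-fold higher against the floor of 3 counts per library. *bHLH38* lost the call without *HRE1β*-labelled replicate 1 (adjusted p 0.0012 to 0.066), *BHLH101* without WT replicate 2 (0.00029 to 0.066) and *CYP82C4* with DESeq2 (2.2e-05 to 0.31).

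Genes for the movement and sensing of iron inside the plant took the same direction. *OPT3*, a phloem transporter that signals iron status from the shoot, was at 49.1 and 47.4 CPM in *HRE1β*-labelled and 23.5 and 24.2 CPM in WT libraries (log2 fold change 1.01 ± 0.11 (SE), adjusted p = 7.2e-08, edgeR). *BTS*, a ubiquitin ligase that restrains the response, was at 29.2 and 29.9 CPM in *HRE1β*-labelled and 14.8 and 16.7 CPM in WT libraries (log2 fold change 0.91 ± 0.13 (SE), adjusted p = 5.2e-06, edgeR). *PYE*, a bHLH regulator, *NAS4*, a nicotianamine synthase, and *ABCG37*, an exporter of coumarins, had log2 fold changes of 0.71 ± 0.15, 1.50 ± 0.18 and 1.26 ± 0.15. Of the list, *IRT2*, a close relative of *IRT1* kept in vesicles, was lower at 0.376 and 0.296 CPM in *HRE1β*-labelled against 1.86 and 3.46 CPM in WT libraries (log2 fold change −2.98 ± 0.47 (SE), adjusted p = 3.7e-05, edgeR), and so was the copper importer *COPT2* (−0.66 ± 0.18). Of the 4 ferritins, which store iron, *FER1* was lower at 82.5 and 69.3 CPM in *HRE1β*-labelled against 115 and 104 CPM in WT libraries (log2 fold change −0.53 ± 0.09 (SE), adjusted p = 0.00017, edgeR) and *FER4* had −0.46 ± 0.13, and *FER2* and *FER3* were not called. In the *AtRH17*-labelled libraries *IRT1* was at 3.88 and 3.51 CPM and in those of *HRE1α* OX at 0.813 and 0.403 CPM, and the *HRE1β*-labelled libraries were above both (adjusted p = 0.0006 and 5e-09, edgeR). Iron uptake members higher and lower numbered 11 and 1 without *HRE1β*-labelled replicate 1 and 15 and 1 without WT replicate 1. Ferritin members higher and lower numbered 0 and 1 without *HRE1β*-labelled replicate 1. *COPT2* lost the call without *HRE1β*-labelled replicate 1 and without WT replicate 1 (adjusted p 8.3e-06 to 0.15) and *FER4* without *HRE1β*-labelled replicate 1 (0.003 to 0.22).

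The copper/zinc superoxide dismutases (SODs) *CSD1* and *CSD2* were higher and the iron enzyme *FSD1* was lower, whereas *CSD3* was lower and *FSD2* higher. The microRNA miR398 removes transcripts of *CSD1*, *CSD2* and their chaperone when copper is short. *CSD2*, of the chloroplast, was at 322 and 303 CPM in *HRE1β*-labelled and 57.1 and 85.4 CPM in WT libraries (log2 fold change 2.13 ± 0.17 (SE), adjusted p = 6.8e-05, edgeR). *CSD1*, of the cytosol, was at 332 and 335 CPM in *HRE1β*-labelled and 85.0 and 133 CPM in WT libraries (log2 fold change 1.61 ± 0.21 (SE), adjusted p = 0.0049, edgeR). *CCS*, the copper chaperone of these enzymes, was at 123 and 115 CPM in *HRE1β*-labelled and 35.0 and 58.3 CPM in WT libraries (log2 fold change 1.35 ± 0.26 (SE), adjusted p = 0.026, edgeR). *FSD1* was lower, at 413 and 449.9 CPM in *HRE1β*-labelled against 1762 and 1354 CPM in WT libraries (log2 fold change −1.85 ± 0.10 (SE), adjusted p = 7e-11, edgeR), as was the peroxisomal *CSD3* (log2 fold change −0.73 ± 0.10 (SE), adjusted p = 8.5e-06, edgeR). *FSD2*, a chloroplast enzyme, was higher (0.64 ± 0.21). The groups did not overlap in any of these genes, although WT replicate 2 was the nearer to the *HRE1β*-labelled libraries in *CSD1*, *CSD2*, *CCS* and *FSD1*. The *AtRH17*-labelled libraries held 276 and 301 CPM of *CSD2* and the *HRE1α* OX libraries 92.9 and 86.9 CPM. *CCS* lost the call without *HRE1β*-labelled replicate 1 or 2 (adjusted p 3.6e-21 to 0.11) and *FSD2* without *HRE1β*-labelled replicate 1 or 2, without WT replicate 2, with DESeq2 and in a fit of both groups alone (6.2e-05 to 0.32).

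Copper genes were looked at after these values were seen, and their counts carry no test as a group. *CCH*, a copper chaperone, was at 217 and 227 CPM in *HRE1β*-labelled and 385 and 365 CPM in WT libraries (log2 fold change −0.76 ± 0.08 (SE), adjusted p = 6.7e-08, edgeR). *COPT1*, a high-affinity copper importer, was at 191 and 204 CPM in *HRE1β*-labelled and 254 and 274 CPM in WT libraries (log2 fold change −0.42 ± 0.08 (SE), adjusted p = 0.00033, edgeR). Copper reductase *FRO4* had a log2 fold change of −0.99 ± 0.24 and *YSL2*, a transporter of metal chelates, −0.82 ± 0.16. *SPL7*, the factor of the copper deficiency response, was at 17.8 and 18.9 CPM in *HRE1β*-labelled against 14.3 and 13.3 CPM in WT libraries (log2 fold change 0.41 ± 0.14 (SE), adjusted p = 0.035, edgeR). *ZIF1*, a vacuolar transporter known for zinc tolerance, was higher at 18.7 and 18.1 CPM in *HRE1β*-labelled against 10.05 and 11.4 CPM in WT libraries (log2 fold change 0.78 ± 0.16 (SE), adjusted p = 0.00059, edgeR), and the metal transporter *ZIP2* was lower (−0.33 ± 0.11). *FRO5* and *COPT6* were not called. *FRO4* lost the call without *HRE1β*-labelled replicate 1 (adjusted p 7.5e-09 to 0.054), *SPL7* without *HRE1β*-labelled replicate 1 or 2, without WT replicate 2 and with DESeq2 (0.02 to 0.23) and *ZIP2* without *HRE1β*-labelled replicate 1, without WT replicate 1, with upper-quartile factors, with DESeq2, with quantile normalization and in a fit of both groups alone (0.0054 to 0.3).

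**Figure D3:**
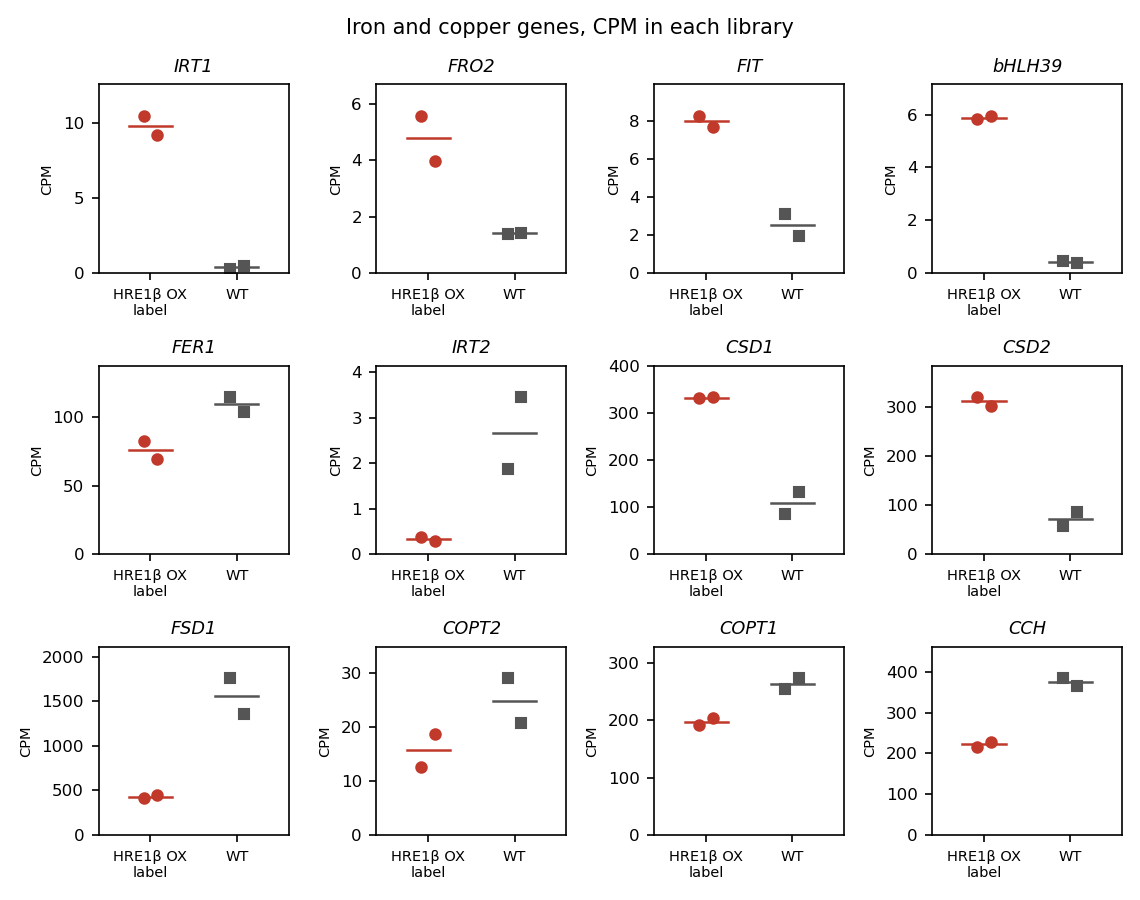
CPM of 12 iron, copper and SOD genes in each library, with the 2 HRE1β-labelled libraries left and the 2 WT libraries right; lines are group means and axes start at 0. IRT1, FRO2, FIT, bHLH39, CSD1 and CSD2 are higher in the HRE1β-labelled libraries, and FER1, IRT2, FSD1, COPT2, COPT1 and CCH are lower.

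Phosphate starvation genes were lower in part and otherwise not called. Of 16 members tested of 17 listed, 7 were lower and 0 higher, 3 of them past 2-fold, with a median of −0.89. *SPX2*, an inhibitor of the starvation regulator PHR1, was at 7.97 and 6.81 CPM in *HRE1β*-labelled and 13.8 and 14.1 CPM in WT libraries (log2 fold change −0.92 ± 0.17 (SE), adjusted p = 0.0002, edgeR). The transporters *PHT1;4* and *PHO1;H1* had log2 fold changes of −0.53 ± 0.13 and −0.90 ± 0.20, and *GDPD1* (*SRG3*), which recycles phospholipids, −1.42 ± 0.19. *AT5G03545*, a starvation-induced RNA outside the list and among the 12 lowest genes of all, was at 64.1 and 52.6 CPM in *HRE1β*-labelled and 701 and 433 CPM in WT libraries (log2 fold change −3.28 ± 0.31 (SE), adjusted p = 0.0061, edgeR). *IPS1*, a noncoding decoy of miR399, was at 1.47 and 0.428 CPM in *HRE1β*-labelled against 36.8 and 11.8 CPM in WT libraries and did not pass (adjusted p = 0.063, edgeR), and neither did *SPX1*, at 11.8 and 7.99 CPM in *HRE1β*-labelled against 67.2 and 32.2 CPM in WT libraries. In *IPS1*, *SPX1*, *SPX3*, *MGD3* and *AT5G03545* WT replicate 1 lay well above WT replicate 2. Phosphate members higher and lower numbered 0 and 4 without *HRE1β*-labelled replicate 1, 0 and 3 without *HRE1β*-labelled replicate 2, 1 and 6 without WT replicate 1 and 0 and 11 without WT replicate 2. *PHT1;4* lost the call without *HRE1β*-labelled replicate 1 (adjusted p 0.0015 to 0.065) and *PHO1;H1* without *HRE1β*-labelled replicate 2 (3.4e-05 to 0.072).

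Nitrate genes were called in both directions. Of 14 tested of 19 listed, 4 were higher and 5 lower, 0 of them past 2-fold. The assimilation enzymes were higher, with nitrite reductase *NIR1* at 264 and 293 CPM in *HRE1β*-labelled against 186 and 158 CPM in WT libraries (log2 fold change 0.70 ± 0.09 (SE), adjusted p = 1.5e-06, edgeR) and the nitrate reductases *NIA1* and *NIA2* at log2 fold changes of 0.39 ± 0.08 and 0.41 ± 0.08. *NRT3.1* (*WR3*), the partner of high-affinity transporters, had 0.95 ± 0.18. The transceptor *NRT1.1* was lower (−0.33 ± 0.08), and so were *BT1*, *BT2*, *LBD38* and *LBD39*, regulators of nitrogen use. *BT2*, *LBD38* and *LBD39* had log2 fold changes of −0.44 ± 0.09, −0.34 ± 0.09 and −0.27 ± 0.09, and *BT1* was at 126 and 139 CPM in *HRE1β*-labelled against 227 and 212 CPM in WT libraries (log2 fold change −0.73 ± 0.08 (SE), adjusted p = 2.8e-07, edgeR). In sulfate assimilation, 3 of 12 tested members were higher and 1 lower, led by *APR3*, an adenosine phosphosulfate reductase, at 22.7 and 24.96 CPM in *HRE1β*-labelled against 10.8 and 8.19 CPM in WT libraries (log2 fold change 1.33 ± 0.15 (SE), adjusted p = 2.4e-07, edgeR), and the sulfur-limitation gene *LSU2* was not called (−0.08 ± 0.29). Nitrate members higher and lower numbered 3 and 2 without *HRE1β*-labelled replicate 2. Sulfur members higher and lower numbered 2 and 0 without *HRE1β*-labelled replicate 1, 1 and 0 without *HRE1β*-labelled replicate 2 and 4 and 0 without WT replicate 1. *NIA2* lost the call without *HRE1β*-labelled replicate 2 (adjusted p 3.4e-06 to 0.071), *NRT1.1* without *HRE1β*-labelled replicate 2 (0.00048 to 0.062), *BT2* without *HRE1β*-labelled replicate 2 (1.8e-05 to 0.06), *LBD38* without *HRE1β*-labelled replicate 2 (0.00093 to 0.062) and *LBD39* without *HRE1β*-labelled replicate 1, without WT replicate 1, with upper-quartile factors, with quantile normalization and in a fit of both groups alone (0.015 to 0.36).

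Enzymes that conjugate and remove foreign or toxic compounds were higher. Of the 20 genes in the detoxification list, 18 were higher and 0 lower, 14 of them past 2-fold, with a median of 1.51. Several members were chosen because the study names them from these samples, so the list is not independent evidence of its direction. *GSTU24*, a tau-class glutathione S-transferase, was at 49.4 and 57.4 CPM in *HRE1β*-labelled and 13.6 and 10.5 CPM in WT libraries (log2 fold change 2.15 ± 0.13 (SE), adjusted p = 1.6e-11, edgeR). *CYP81D11*, a P450 induced by xenobiotics, was at 45.1 and 43.3 CPM in *HRE1β*-labelled and 5.61 and 4.35 CPM in WT libraries (log2 fold change 3.15 ± 0.15 (SE), adjusted p = 4e-14, edgeR). *UGT73B5*, a glucosyltransferase, was at 80.2 and 88.1 CPM in *HRE1β*-labelled and 27.7 and 18.6 CPM in WT libraries (log2 fold change 1.87 ± 0.14 (SE), adjusted p = 5.8e-08, edgeR), and *UGT74E2*, which conjugates indole-3-butyric acid, at 9.86 and 21.7 CPM in *HRE1β*-labelled against 0.501 and 0.795 CPM in WT libraries (log2 fold change 4.60 ± 0.43 (SE), adjusted p = 1.3e-05, edgeR). The oxophytodienoate reductase-like genes *OPR1* and *OPR2* had log2 fold changes of 1.46 ± 0.13 and 1.25 ± 0.18. In these genes the groups were far apart, although *UGT74E2* differed between the *HRE1β*-labelled libraries. *UGT73B4* was at 58.3 and 63.6 CPM in *HRE1β*-labelled against 12.9 and 5.01 CPM in WT libraries (log2 fold change 2.77 ± 0.48 (SE), adjusted p = 0.036, edgeR), and *CYP81D8*, at 3.31 and 12.4 CPM in *HRE1β*-labelled against 1.65 and 2.63 CPM in WT libraries, was not called. The aldo-keto reductase *ChlAKR* was at 2.67 and 2.47 CPM in *HRE1β*-labelled and 0 and 0.0346 CPM in WT libraries, a ratio of counts of 146 (counting interval 25.8 to 5797). *UGT73B4* lost the call without *HRE1β*-labelled replicate 1 or 2, without a filter, in a fit of both groups alone and with the replicate block (adjusted p 1.4e-25 to 0.15).

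The enzyme families as wholes moved less evenly. Of 46 glutathione S-transferases tested, 18 were higher and 1 lower, including *GSTF6* at 72.9 and 77.7 CPM in *HRE1β*-labelled against 14.1 and 13.5 CPM in WT libraries (log2 fold change 2.45 ± 0.11 (SE), adjusted p = 2.2e-14, edgeR) and *ERD9* (2.41 ± 0.14). The single lower member was *GSTF14*, at 5.98 and 9.70 CPM in *HRE1β*-labelled against 38.9 and 28.9 CPM in WT libraries (log2 fold change −2.10 ± 0.21 (SE), adjusted p = 1.9e-05, edgeR). UDP-glycosyltransferases had 17 higher and 6 lower of 54, among them *UGT76B1*, which glucosylates isoleucic acid in defence, at 37.1 and 33.0 CPM in *HRE1β*-labelled against 13.4 and 6.39 CPM in WT libraries (log2 fold change 1.83 ± 0.32 (SE), adjusted p = 0.01, edgeR). In the P450 family 28 of 166 were higher and 11 lower. ABC transporters had 20 higher and 6 lower of 104, with *ABCB15* at 31.0 and 29.0 CPM in *HRE1β*-labelled against 13.8 and 12.8 CPM in WT libraries (log2 fold change 1.17 ± 0.13 (SE), adjusted p = 1.4e-07, edgeR). Higher members made up 39.1% of the glutathione S-transferases, 31.5% of the UDP-glycosyltransferases, 16.9% of the P450s and 19.2% of the ABC transporters, beside 11.3% of all genes.

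Genes of alternative respiration were higher or not called. The alternative oxidase passes electrons to oxygen without pumping protons, and external NADH dehydrogenases feed it. Of 10 tested members of 16 listed, 4 were higher and 0 lower. *AOX1A* was at 11.96 and 21.5 CPM in *HRE1β*-labelled and 4.72 and 5.01 CPM in WT libraries (log2 fold change 1.78 ± 0.25 (SE), adjusted p = 5.2e-05, edgeR), and *NDB2*, an external dehydrogenase, at 15.3 and 16.0 CPM in *HRE1β*-labelled and 6.90 and 4.84 CPM in WT libraries (log2 fold change 1.42 ± 0.19 (SE), adjusted p = 2.8e-06, edgeR). *NDA1*, an internal dehydrogenase, and *NAC13*, a factor of mitochondrial stress signalling, had log2 fold changes of 0.44 ± 0.13 and 0.75 ± 0.24. *NDB1* was at 23.5 and 18.1 CPM in *HRE1β*-labelled against 18.7 and 20.9 CPM in WT libraries and was not called. *AOX1B*, *AOX1C*, *AOX1D*, *AOX2*, *NDB3* and *NDB4* did not pass the filter on low counts. Alternative respiration members higher and lower numbered 2 and 0 without *HRE1β*-labelled replicate 2. *NDA1* lost the call without *HRE1β*-labelled replicate 2 and without WT replicate 1 (adjusted p 1.4e-05 to 0.22) and *NAC13* without *HRE1β*-labelled replicate 2 and without WT replicate 1 (0.014 to 0.28).

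Among the remaining genes of oxidative stress, *MSD1*, the mitochondrial SOD, was higher (0.37 ± 0.09). The peroxidases and reductases that recycle ascorbate were not called, such as *APX1* at 796 and 779 CPM in *HRE1β*-labelled against 772 and 662 CPM in WT libraries (log2 fold change 0.14 ± 0.08) and *DHAR1* at 105 and 123 CPM in *HRE1β*-labelled against 119.8 and 113 CPM in WT libraries (−0.03 ± 0.09). In all, 6 of the 15 tested members were higher and 2 lower, and the higher ones include the seed gene *PER1*. Oxidative stress members higher and lower numbered 3 and 2 without *HRE1β*-labelled replicate 1. *MSD1* lost the call without *HRE1β*-labelled replicate 1 (adjusted p 0.00027 to 0.077).

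Genes responsive to abscisic acid (ABA) and cold were higher. Of 24 tested members of 28 listed, 14 were higher and 1 lower, 10 and 1 of them past 2-fold, with a median of 0.54. *LTI30*, a dehydrin, was at 92.5 and 79.4 CPM in *HRE1β*-labelled and 32.5 and 25.2 CPM in WT libraries (log2 fold change 1.58 ± 0.11 (SE), adjusted p = 7.5e-10, edgeR). *RD26*, a NAC factor of dehydration, was at 78.4 and 66.7 CPM in *HRE1β*-labelled and 37.0 and 33.6 CPM in WT libraries (log2 fold change 1.04 ± 0.10 (SE), adjusted p = 3.8e-08, edgeR). *HAI1*, a phosphatase that damps ABA signalling, was at 6.32 and 4.24 CPM in *HRE1β*-labelled and 0.858 and 0.553 CPM in WT libraries (log2 fold change 2.90 ± 0.35 (SE), adjusted p = 9.6e-07, edgeR), and *ZAT12* (*RHL41*), a zinc-finger factor, at 12.9 and 16.9 CPM in *HRE1β*-labelled and 3.11 and 5.53 CPM in WT libraries (log2 fold change 1.78 ± 0.23 (SE), adjusted p = 6e-06, edgeR). The groups did not overlap in these 4 genes, as in every gene called past 2-fold. *RD29A* (*LTI78*) and *RD29B* (*LTI65*) had log2 fold changes of 0.82 ± 0.19 and 2.81 ± 0.45, *COR15A* had 3.18 ± 0.71, and the abundant dehydrins *COR47* and *ERD10* had 0.48 ± 0.08 and 0.48 ± 0.12. The exception was *DREB2A*, a drought and heat regulator, at 1.62 and 1.55 CPM in *HRE1β*-labelled against 4.40 and 3.56 CPM in WT libraries (log2 fold change −1.33 ± 0.31 (SE), adjusted p = 0.0023, edgeR). *ERD14*, at 358 and 365 CPM in *HRE1β*-labelled against 374 and 342 CPM in WT libraries, and the phosphatases *ABI1*, *ABI2* and *HAB1* were not called. *LTI78* lost the call without *HRE1β*-labelled replicate 2 (adjusted p 0.0004 to 0.076) and *ERD10* without *HRE1β*-labelled replicate 1 (1.5e-07 to 0.083).

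Defence genes of salicylate and jasmonate were higher in a minority of cases. In the salicylate list 5 of 17 tested were higher and 0 lower. *WRKY70*, a factor between both hormones, was at 19.2 and 17.9 CPM in *HRE1β*-labelled and 9.01 and 8.57 CPM in WT libraries (log2 fold change 1.07 ± 0.16 (SE), adjusted p = 1.4e-05, edgeR), and *ICS1* (*EDS16*), which makes salicylate, at 11.5 and 10.4 CPM in *HRE1β*-labelled and 6.94 and 7.40 CPM in WT libraries (log2 fold change 0.61 ± 0.17 (SE), adjusted p = 0.011, edgeR). *PAD3*, the last enzyme of camalexin synthesis, was at 1.28 and 4.08 CPM in *HRE1β*-labelled and 0.608 and 0.380 CPM in WT libraries (log2 fold change 2.44 ± 0.55 (SE), adjusted p = 0.002, edgeR), with the *HRE1β*-labelled libraries well apart from each other. *NPR1*, *PAD4* and *EDS5* were not called, and *PR1*, with 14 and 11 counts in *HRE1β*-labelled and 0 and 0 counts in WT libraries, did not pass the filter. In the jasmonate list 5 of 22 were higher and 0 lower. *LOX2*, which starts jasmonate synthesis in the chloroplast, was at 11.1 and 7.63 CPM in *HRE1β*-labelled and 3.43 and 1.52 CPM in WT libraries (log2 fold change 1.92 ± 0.32 (SE), adjusted p = 0.00019, edgeR), and *AOS* and *AOC2*, the next enzymes, had 0.39 ± 0.10 and 1.27 ± 0.31. *MYC2*, the central factor, was at 46.7 and 51.1 CPM in *HRE1β*-labelled against 46.4 and 49.0 CPM in WT libraries and was not called. Salicylate members higher and lower numbered 2 and 0 without *HRE1β*-labelled replicate 2. Jasmonate members higher and lower numbered 3 and 2 without *HRE1β*-labelled replicate 2 and 6 and 2 without WT replicate 1. *EDS16* lost the call without *HRE1β*-labelled replicate 1 (adjusted p 0.0056 to 0.12), *PAD3* without *HRE1β*-labelled replicate 2 (2.9e-05 to 0.32), *AOS* without *HRE1β*-labelled replicate 2 (0.00033 to 0.068) and *AOC2* without *HRE1β*-labelled replicate 1 (0.0014 to 0.08).

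Genes of flavonoid synthesis were higher. Of 15 tested members of 17 listed, 8 were higher and 0 lower, 4 of them past 2-fold, with a median of 0.86. *CHS* (*TT4*), chalcone synthase, was at 66.1 and 74.7 CPM in *HRE1β*-labelled and 26.7 and 15.3 CPM in WT libraries (log2 fold change 1.75 ± 0.25 (SE), adjusted p = 0.0046, edgeR). *PAL1*, which opens the phenylpropanoid pathway, was at 86.0 and 86.4 CPM in *HRE1β*-labelled and 52.3 and 42.7 CPM in WT libraries (log2 fold change 0.86 ± 0.10 (SE), adjusted p = 3.7e-07, edgeR). *F3H*, *FLS1* and *CHI* (*TT5*) had log2 fold changes of 0.88 ± 0.14, 1.15 ± 0.19 and 0.85 ± 0.18, and the counts of *F3H* cannot be separated from those of the overlapping *AT3G51238*. *MYB111*, an activator of flavonol genes, was at 5.60 and 8.95 CPM in *HRE1β*-labelled and 2.72 and 2.80 CPM in WT libraries (log2 fold change 1.40 ± 0.26 (SE), adjusted p = 0.0002, edgeR). The anthocyanin regulators *TT8* and *MYB90* (*PAP2*) lay under 1 CPM in each library and were not called. Glucosinolate genes had no common direction, with 3 of 21 higher and 4 lower (14.3% and 19.0%, beside 11.3% and 11.2% of all genes). *MYB29*, an activator of the aliphatic branch, was at 2.90 and 3.26 CPM in *HRE1β*-labelled and 0.644 and 0.553 CPM in WT libraries (log2 fold change 2.36 ± 0.44 (SE), adjusted p = 0.00023, edgeR), and *MYB28*, its close relative, was not called at 20.7 and 22.5 CPM in *HRE1β*-labelled against 22.7 and 20.8 CPM in WT libraries. *MAM3* (*IMS2*) and *CYP79B3*, early enzymes of the aliphatic and indole branches, were lower (−0.59 ± 0.10 and −0.54 ± 0.09). Glucosinolate members higher and lower numbered 3 and 2 without *HRE1β*-labelled replicate 1, 3 and 2 without WT replicate 1 and 5 and 6 without WT replicate 2.

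Transcription factor families had members in both directions. Higher and lower members made up 21.3% and 8.2% of WRKY, 18.6% and 5.71% of NAC and 18.5% and 25.9% of B-box factors. The shares of all genes were 11.3% and 11.2%. WRKY factors had 13 higher and 5 lower of 61, with *WRKY6* at 10.08 and 11.0 CPM in *HRE1β*-labelled against 4.40 and 5.53 CPM in WT libraries (log2 fold change 1.08 ± 0.20 (SE), adjusted p = 0.00022, edgeR) and *WRKY18* at 7.52 and 8.49 CPM in *HRE1β*-labelled against 19.3 and 17.6 CPM in WT libraries (log2 fold change −1.20 ± 0.17 (SE), adjusted p = 9.6e-06, edgeR). NAC factors had 13 higher and 4 lower of 70, including *NAC102* (0.75 ± 0.10) and *NAC032* (1.32 ± 0.17). MYB factors had 7 higher and 9 lower of 91 (7.69% and 9.89%), below the 11.3% and 11.2% of all genes. ERF and DREB genes, matched by name, had 3 higher and 9 lower of 32 (9.38% and 28.1%), *RAP2.3* among the lower. *NAP57*, which is no such factor, is counted in the 32 through a synonym and was not called. *DREB26* was at 12.5 and 15.0 CPM in *HRE1β*-labelled against 34.5 and 38.8 CPM in WT libraries (log2 fold change −1.41 ± 0.13 (SE), adjusted p = 7.2e-09, edgeR), and *ERF5* was higher (0.90 ± 0.28). B-box zinc fingers, several of which act in light signalling, went both ways, with 5 higher and 7 lower of 27. *BBX30*, a microprotein that curbs CONSTANS, was at 6.55 and 10.2 CPM in *HRE1β*-labelled and 1.97 and 1.66 CPM in WT libraries (log2 fold change 2.21 ± 0.25 (SE), adjusted p = 2.3e-07, edgeR), and *BBX32* at 10.7 and 14.0 CPM in *HRE1β*-labelled and 1.43 and 4.01 CPM in WT libraries (log2 fold change 2.18 ± 0.38 (SE), adjusted p = 0.0057, edgeR). *BBX17* was lower, at 4.02 and 4.87 CPM in *HRE1β*-labelled against 12.1 and 12.8 CPM in WT libraries (log2 fold change −1.48 ± 0.20 (SE), adjusted p = 3.5e-06, edgeR), as was *COL9* (−0.98 ± 0.18). *ERF5* lost the call without *HRE1β*-labelled replicate 1 or 2 and without WT replicate 2 (adjusted p 0.0069 to 0.14).

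Nuclear genes of the photosystems and antennae were higher, nearly all by less than 2-fold. Of 32 members, all tested, 28 were higher and 0 lower, 2 of them past 2-fold, with a median of 0.51. *LHCB3*, an antenna protein of photosystem II, was at 1308 and 1337 CPM in *HRE1β*-labelled and 599.8 and 599 CPM in WT libraries (log2 fold change 1.14 ± 0.08 (SE), adjusted p = 2.9e-11, edgeR). *LHCA1*, of photosystem I, was at 1033 and 1080.0 CPM in *HRE1β*-labelled and 494 and 564 CPM in WT libraries (log2 fold change 0.998 ± 0.08 (SE), adjusted p = 1.1e-09, edgeR), and *PSAD-2*, a subunit of its core, at 251 and 264 CPM in *HRE1β*-labelled and 119 and 152 CPM in WT libraries (log2 fold change 0.92 ± 0.09 (SE), adjusted p = 1.2e-07, edgeR). *CAB2* (*LHCB1.1*) had a log2 fold change of 1.12 ± 0.08 and *CAB3* and *CAB1* had 0.93 ± 0.08 and 0.38 ± 0.08, but these 3 genes are near-identical and share multiple alignments. Of the Rubisco small subunits, *RBCS1A* was at 8754 and 9095 CPM in *HRE1β*-labelled against 6883 and 8016 CPM in WT libraries (log2 fold change 0.26 ± 0.08 (SE), adjusted p = 0.021, edgeR). Rubisco activase *RCA* was at 685 and 787 CPM in *HRE1β*-labelled against 351 and 545 CPM in WT libraries and was not called (adjusted p = 0.12, edgeR). Neither were *PRK*, *PSBR* and *RBCS1B*. Of the 11 genes listed as green tissue markers, which overlap this list, 10 were higher and 0 lower, and their summed level was 39744 and 42763 CPM in *HRE1β*-labelled and 26321 and 29759 CPM in WT libraries. The part of the amount of green tissue was not tested. *RBCS1A* lost the call without *HRE1β*-labelled replicate 1 or 2, without WT replicate 1, with quantile normalization and in a fit of both groups alone (adjusted p 2.8e-05 to 0.27).

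**Figure D4:**
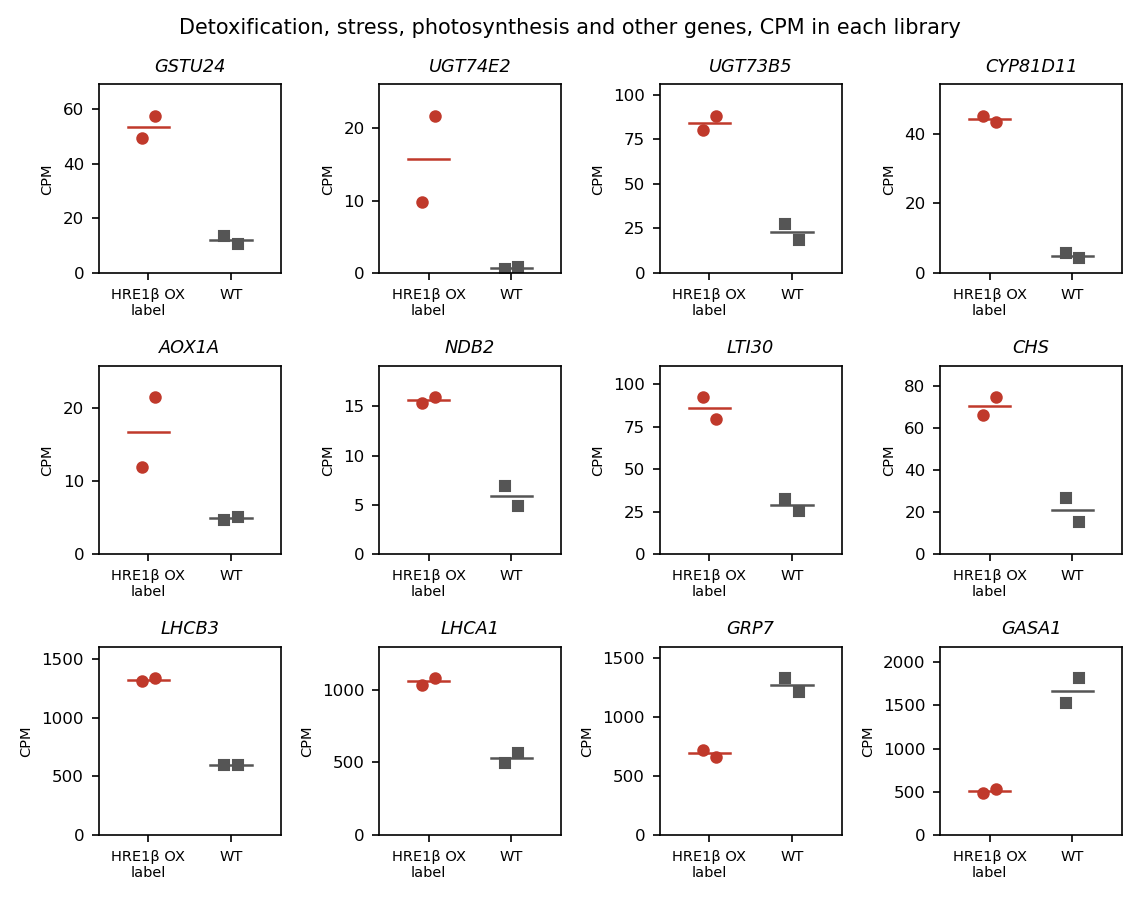
CPM of 12 genes of detoxification, respiration, stress, photosynthesis and other functions in each library, with the 2 HRE1β-labelled libraries left and the 2 WT libraries right; lines are group means and axes start at 0. All but GRP7 and GASA1 are higher in the HRE1β-labelled libraries, GSTU24 for instance at 49.4 and 57.4 CPM in *HRE1β*-labelled against 13.6 and 10.5 CPM in WT libraries.

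Clock genes were lower in part. Of 24 tested members of 29 listed, 11 were lower and 3 higher, 0 and 1 of them past 2-fold, with a median of −0.32. *CCA1* and *LHY*, the morning MYB factors, were at 129.6 and 149 CPM in *HRE1β*-labelled against 155 and 184 CPM in WT libraries (log2 fold change −0.29 ± 0.09 (SE), adjusted p = 0.028, edgeR) and at 536 and 639.7 CPM in *HRE1β*-labelled against 610.1 and 624 CPM in WT libraries (not called). Their relatives *RVE1*, *RVE2* and *RVE8* had log2 fold changes of −0.65 ± 0.09, −0.68 ± 0.10 and −0.41 ± 0.09. In the evening set *TOC1* was at 8.24 and 8.49 CPM in *HRE1β*-labelled against 11.6 and 11.8 CPM in WT libraries (log2 fold change −0.48 ± 0.17 (SE), adjusted p = 0.037, edgeR) and *ELF3* had −0.49 ± 0.16, whereas *GI* and *ELF4* lay at or under 1.54 CPM and were not called. Pseudo-response regulators divided, with *PRR7* lower (−0.62 ± 0.15) and *PRR9*, which peaks earlier, at 3.39 and 2.99 CPM in *HRE1β*-labelled against 1.22 and 1.11 CPM in WT libraries (log2 fold change 1.45 ± 0.27 (SE), adjusted p = 0.00027, edgeR). *GRP7*, an RNA-binding output of the clock, was at 725 and 661 CPM in *HRE1β*-labelled and 1333 and 1218 CPM in WT libraries (log2 fold change −0.88 ± 0.08 (SE), adjusted p = 6.3e-09, edgeR). Clock members higher and lower numbered 2 and 6 without *HRE1β*-labelled replicate 1 and 1 and 10 without *HRE1β*-labelled replicate 2. The hour of harvest is not given in the sources used here. *CCA1* lost the call without *HRE1β*-labelled replicate 1, without WT replicate 2, with upper-quartile factors and in a fit of both groups alone (adjusted p 0.00012 to 0.35), *TOC1* without *HRE1β*-labelled replicate 1 or 2, without WT replicate 1 or 2, with upper-quartile factors and with DESeq2 (0.031 to 0.19), *ELF3* without *HRE1β*-labelled replicate 1 and without WT replicate 1 (0.012 to 0.34) and *PRR7* without *HRE1β*-labelled replicate 2 (0.0012 to 0.055).

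Some genes induced by a shortage of carbon were lower. Of 18 tested of 20 listed, 8 were lower, 1 was higher and 9 were not called, with 3 lower and 1 higher past 2-fold. *DYL1* (*DRM1*), a dormancy-associated gene, was at 197 and 169 CPM in *HRE1β*-labelled and 477 and 478 CPM in WT libraries (log2 fold change −1.38 ± 0.08 (SE), adjusted p = 4.7e-12, edgeR). *DIN10*, a raffinose synthase induced by darkness, was at 55.3 and 58.2 CPM in *HRE1β*-labelled and 113 and 147 CPM in WT libraries (log2 fold change −1.20 ± 0.11 (SE), adjusted p = 1.6e-08, edgeR), and *ERD5*, proline dehydrogenase, at 56.2 and 55.5 CPM in *HRE1β*-labelled and 116 and 116 CPM in WT libraries (log2 fold change −1.06 ± 0.09 (SE), adjusted p = 1.8e-09, edgeR). *DIN2*, a beta-glucosidase, was the exception (2.07 ± 0.52), and *ASN1* was not called at 45.9 and 37.99 CPM in *HRE1β*-labelled against 51.6 and 85.1 CPM in WT libraries. Starch and sugar genes had 6 of 22 higher and 4 lower. The starch degradation genes *BAM3* (*CT-BMY*) and *SEX1* were lower (−0.75 ± 0.10 and −0.59 ± 0.17), as were the sugar transporters *STP1* and *SWEET11* (−0.56 ± 0.09 and −0.46 ± 0.09). *GBSS1*, granule-bound starch synthase, was higher at 35.7 and 45.1 CPM in *HRE1β*-labelled against 16.5 and 24.2 CPM in WT libraries (log2 fold change 0.99 ± 0.17 (SE), adjusted p = 0.0012, edgeR), and so was the plastid glucose phosphate transporter *GPT2*, at 4.02 and 3.29 CPM in *HRE1β*-labelled against 0.608 and 0.0346 CPM in WT libraries (log2 fold change 3.50 ± 0.70 (SE), adjusted p = 0.0017, edgeR). Carbon starvation members higher and lower numbered 0 and 7 without *HRE1β*-labelled replicate 1, 1 and 4 without *HRE1β*-labelled replicate 2 and 3 and 9 without WT replicate 2. Starch and sugar members higher and lower numbered 3 and 4 without *HRE1β*-labelled replicate 1. *DIN2* lost the call without *HRE1β*-labelled replicate 1 (adjusted p 0.00033 to 0.056), *SEX1* without *HRE1β*-labelled replicate 2 and without WT replicate 2 (0.0062 to 0.14) and *GPT2* with DESeq2 (2.5e-10 to 0.16).

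Within the chloroplast genome, 15 of 84 genes were higher and 12 lower, and only *ndhA* and *ycf3* passed 2-fold. These shares were 17.9% and 14.3%, beside 11.3% and 11.2% of all genes. *ndhA*, a subunit of the plastid NADH dehydrogenase-like complex, was at 1016 and 1199 CPM in *HRE1β*-labelled and 316 and 341 CPM in WT libraries (log2 fold change 1.75 ± 0.09 (SE), adjusted p = 8.9e-14, edgeR). *ycf3*, an assembly factor of photosystem I, was at 659 and 695 CPM in *HRE1β*-labelled and 221 and 199 CPM in WT libraries (log2 fold change 1.69 ± 0.08 (SE), adjusted p = 8.9e-14, edgeR). Both are annotated in more than 1 segment, that is, with introns. Of the 9 such chloroplast genes 5 were higher and 0 lower, with a median of 0.23, and of the 75 genes in 1 segment 10 were higher and 12 lower, with a median of 0.06. QuantSeq is primed on poly(A), which few chloroplast transcripts carry, and where within these genes the reads fell was not tested. The *HRE1β*-labelled libraries were also above the other groups, with *ndhA* at 319.7 and 319.8 CPM in *HRE1α* OX (adjusted p = 1.6e-13, edgeR) and at 315 and 311 CPM in *AtRH17*-labelled libraries (adjusted p = 6.4e-16, edgeR). Genes lower in the *HRE1β*-labelled libraries included *psaJ* at 1953 and 2108 CPM in *HRE1β*-labelled against 4142 and 3193 CPM in WT libraries (log2 fold change −0.85 ± 0.11 (SE), adjusted p = 4.5e-05, edgeR).

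Mitochondrial genes showed a comparable pair. *cox2*, a subunit of cytochrome oxidase, was at 33.6 and 32.0 CPM in *HRE1β*-labelled, 9.76 and 9.71 CPM in WT, 6.28 and 7.98 CPM in *HRE1α* OX and 5.79 and 7.21 CPM in *AtRH17*-labelled libraries (log2 fold change 1.75 ± 0.14 (SE), adjusted p = 9.9e-10, edgeR against WT). The ribosomal RNA gene *rrn18* was at 348 and 355 CPM in *HRE1β*-labelled and 147 and 109 CPM in WT libraries (log2 fold change 1.46 ± 0.11 (SE), adjusted p = 8.7e-08, edgeR). In total 6 of 29 mitochondrial genes were higher and 1 lower (20.7% and 3.45%). *AT2G07655*, an uncharacterized gene on chromosome 2 picked after its values were seen, was at 13.02 and 14.3 CPM in *HRE1β*-labelled against 1.86 and 2.42 CPM in WT libraries (log2 fold change 2.67 ± 0.22 (SE), adjusted p = 1.8e-09, edgeR). Counts include multiple alignments, and whether reads of the mitochondrial genome were counted on this gene was not tested.

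**Figure D5:**
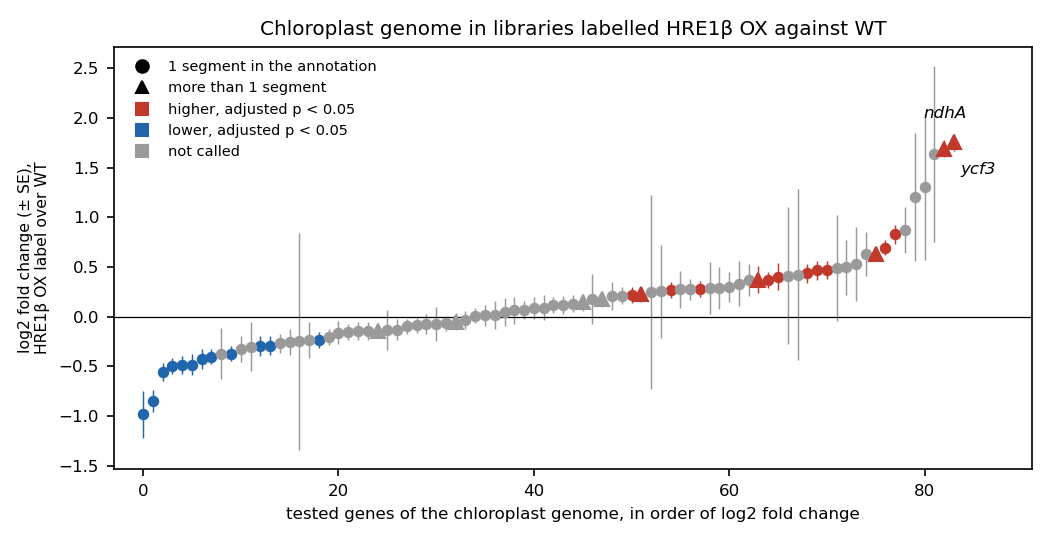
Log2 fold changes with standard errors of the 84 tested chloroplast genes, HRE1β-labelled libraries over WT, in order of size. Triangles are the 9 genes annotated in more than 1 segment and circles the 75 in 1 segment, coloured by the call at an adjusted p of 0.05 (edgeR). ndhA and ycf3, at 1.75 and 1.69, are the called genes that lie above 1.

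Cell wall genes changed in both directions. Xyloglucan endotransglucosylases (XTHs), which cut and rejoin xyloglucan, had 11 of 29 lower and 6 higher, and expansins, which loosen walls, had 8 of 25 higher and 1 lower. *XTH24* was at 70.6 and 88.2 CPM in *HRE1β*-labelled and 154 and 207 CPM in WT libraries (log2 fold change −1.18 ± 0.14 (SE), adjusted p = 0.00015, edgeR), and *XTH12*, *XTH13* and *XTH33* had log2 fold changes of −1.24 ± 0.27, −1.54 ± 0.34 and −1.45 ± 0.32. *XTH17* was higher, at 22.8 and 20.1 CPM in *HRE1β*-labelled against 9.08 and 8.81 CPM in WT libraries (log2 fold change 1.26 ± 0.14 (SE), adjusted p = 2.2e-07, edgeR). Among expansins, *EXPA1* was at 430.4 and 501 CPM in *HRE1β*-labelled and 295 and 290.1 CPM in WT libraries (log2 fold change 0.67 ± 0.08 (SE), adjusted p = 1.1e-06, edgeR) and *EXPA5* at 11.6 and 14.8 CPM in *HRE1β*-labelled and 3.79 and 2.94 CPM in WT libraries (log2 fold change 1.97 ± 0.20 (SE), adjusted p = 6e-08, edgeR). Arabinogalactan proteins had 19 higher and 8 lower of 44, with *AGP14* at 57.1 and 59.6 CPM in *HRE1β*-labelled against 26.4 and 20.5 CPM in WT libraries (log2 fold change 1.32 ± 0.14 (SE), adjusted p = 1.5e-06, edgeR) and *FLA13* at 207 and 259 CPM in *HRE1β*-labelled against 547 and 614 CPM in WT libraries (log2 fold change −1.32 ± 0.10 (SE), adjusted p = 8e-10, edgeR). Of the cyclins, 8 of 26 were higher and 1 lower, among them *CYCA1;1* at 8.24 and 6.91 CPM in *HRE1β*-labelled against 4.04 and 3.94 CPM in WT libraries (log2 fold change 0.92 ± 0.22 (SE), adjusted p = 0.0035, edgeR). *XTH13* lost the call without *HRE1β*-labelled replicate 2 (adjusted p 4e-05 to 0.057), *XTH33* without *HRE1β*-labelled replicate 1 (8.3e-05 to 0.051) and *CYCA1;1* without *HRE1β*-labelled replicate 1 (0.0011 to 0.076).

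The aquaporin *TIP2;3*, a root tonoplast channel for water and ammonia, was at 199.7 and 186 CPM in *HRE1β*-labelled and 25.1 and 20.1 CPM in WT libraries (log2 fold change 3.09 ± 0.11 (SE), adjusted p = 9.1e-16, edgeR), and its relative *TIP2;2* at 195 and 181 CPM in *HRE1β*-labelled and 73.7 and 71.1 CPM in WT libraries (log2 fold change 1.38 ± 0.09 (SE), adjusted p = 8.7e-12, edgeR). In the family 9 of 31 were higher and 3 lower. The lower ones included the boric acid channel *NIP5;1* (−0.69 ± 0.10). As a check on the tissue, 27 of 29 root markers were tested, of which 9 were higher and 2 lower, with a median of 0.15. *PYK10*, a major root protein, was at 2136 and 2054 CPM in *HRE1β*-labelled against 2104 and 1938 CPM in WT libraries and was not called, and neither were *SHR*, *SCR* and *MYB36*. The root markers that rose included *IRT1*, *TIP2;3*, *AGP30*, *PIN2* (*EIR1*), *PIP2;4*, *ESB1* and the Casparian strip genes *CASP1* and *CASP5*. *PIN2*, *PIP2;4* and *CASP5* had log2 fold changes of 0.83 ± 0.20, 0.74 ± 0.20 and 2.22 ± 0.40, and *CASP1* was at 67.0 and 65.3 CPM in *HRE1β*-labelled against 50.5 and 33.2 CPM in WT libraries (log2 fold change 0.66 ± 0.17 (SE), adjusted p = 0.018, edgeR). *PRP3*, of root hairs, was lower (−0.96 ± 0.11), and *EXPA7*, *LRX1* and *COBL9* of the same cells were not called. The summed level of the 29 listed genes was 2795 and 2677 CPM in *HRE1β*-labelled and 2518 and 2289 CPM in WT libraries, most of it from *PYK10*. The part of the amount of root in these values was not tested. Root members higher and lower numbered 7 and 1 without *HRE1β*-labelled replicate 1 and 10 and 1 without WT replicate 1. *EIR1* lost the call without *HRE1β*-labelled replicate 1 (adjusted p 0.00011 to 0.21), *PIP2;4* without *HRE1β*-labelled replicate 2 (0.0014 to 0.073) and *CASP1* without *HRE1β*-labelled replicate 1 or 2 and in a fit of all 8 libraries (1.3e-10 to 0.093).

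Some ethylene genes were lower. Of 19 tested of 20 listed, 11 were lower and 2 higher, with 2 in each direction past 2-fold. The ethylene-responsive growth genes *ARGOS-LIKE* (*ARL*) and *ARGOS* were at 63.2 and 65.2 CPM in *HRE1β*-labelled against 166 and 159 CPM in WT libraries (log2 fold change −1.34 ± 0.09 (SE), adjusted p = 2.7e-11, edgeR) and at 39.8 and 42.2 CPM in *HRE1β*-labelled against 74.3 and 73.7 CPM in WT libraries (log2 fold change −0.85 ± 0.09 (SE), adjusted p = 1.3e-07, edgeR). In the signalling chain, the kinase *CTR1* was at 21.7 and 24.3 CPM in *HRE1β*-labelled against 37.4 and 31.7 CPM in WT libraries (log2 fold change −0.59 ± 0.12 (SE), adjusted p = 0.00053, edgeR), and the receptor *ERS1*, *EIN2* and the factors *EIN3* and *EIL1* had log2 fold changes of −0.43 ± 0.09, −0.29 ± 0.10, −0.29 ± 0.08 and −0.39 ± 0.10. *EBF1*, an F-box protein that removes EIN3, was at 165 and 169 CPM in *HRE1β*-labelled against 114 and 206 CPM in WT libraries and was not called, and the WT libraries enclosed the *HRE1β*-labelled libraries. Synthesis genes divided, with *ACO4* (*EFE*) and *ACS8* lower (−0.61 ± 0.16 and −1.28 ± 0.37) and *ACS6* and *ACS7* higher (1.37 ± 0.31 and 2.44 ± 0.59). Ethylene members higher and lower numbered 2 and 7 without *HRE1β*-labelled replicate 1, 1 and 8 without *HRE1β*-labelled replicate 2 and 4 and 10 without WT replicate 2. *EIN2* lost the call without *HRE1β*-labelled replicate 1 or 2, without WT replicate 2, with upper-quartile factors, with DESeq2, with quantile normalization and in a fit of both groups alone (adjusted p 0.029 to 0.28), *EIN3* without *HRE1β*-labelled replicate 1 (0.00052 to 0.12), *EIL1* without *HRE1β*-labelled replicate 1 (0.003 to 0.13), *EFE* without *HRE1β*-labelled replicate 1 or 2, with upper-quartile factors, with quantile normalization and with the replicate block (3.7e-13 to 0.14), *ACS8* without *HRE1β*-labelled replicate 2 and without WT replicate 2 (0.0036 to 0.17) and *ACS7* without *HRE1β*-labelled replicate 2 (0.00051 to 0.051).

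Early auxin genes of the Aux/IAA and GH3 families had 11 of 36 lower and 2 higher, such as *IAA2* at 141 and 139 CPM in *HRE1β*-labelled against 193 and 188 CPM in WT libraries (log2 fold change −0.45 ± 0.08 (SE), adjusted p = 0.00022, edgeR), and SAUR genes had 8 of 71 in each direction. Cytokinin genes had 2 of 17 in each direction. The shares of SAUR and cytokinin genes (11.27% and 11.8%) were close to those of all genes, 11.3% higher and 11.2% lower. The type-A regulators *ARR4*, *ARR8* and *ARR9* were not called. Genes of brassinosteroid and gibberellin had 4 of 21 in each direction (19.0%). *GASA1*, a gibberellin-responsive peptide gene, was at 484 and 537 CPM in *HRE1β*-labelled and 1523 and 1816 CPM in WT libraries (log2 fold change −1.71 ± 0.09 (SE), adjusted p = 4.1e-13, edgeR), the lowest fold change of that list. Brassinosteroid and gibberellin members higher and lower numbered 2 and 2 without *HRE1β*-labelled replicate 1, 2 and 2 without *HRE1β*-labelled replicate 2 and 2 and 5 without WT replicate 2. Cytokinin members higher and lower numbered 3 and 1 without *HRE1β*-labelled replicate 1 and 0 and 1 without *HRE1β*-labelled replicate 2. *CPD*, of brassinosteroid synthesis, was lower (−0.53 ± 0.10), *PRE1* was higher (1.58 ± 0.30), and the receptor *BRI1* and the factors *BES1* and *BZR1* were not called.

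Seed storage and oil body genes were counted in the *HRE1β*-labelled libraries at levels that differed between the 2 libraries. Of 18 listed, 10 were tested and 8 were higher, with a fitted median of 6.20, or 4.66 with the genes counted in neither WT library at their bound. A gene can pass the filter through a single group, so genes near 0 in the other groups could be tested only if high in the *HRE1β*-labelled libraries. This count and these medians are therefore no test of direction. *CRA1*, a cruciferin, was at 26.9 and 9.24 CPM in the *HRE1β*-labelled libraries and counted in neither WT library, at least 171-fold higher against the floor. *OLEO1*, an oleosin, was at 8.69 and 3.42 CPM in *HRE1β*-labelled and 0.822 and 0.207 CPM in WT libraries (log2 fold change 3.55 ± 0.55 (SE), adjusted p = 0.00025, edgeR), and *M17*, a late embryogenesis gene among the 12 highest of all, at 14.7 and 5.46 CPM in *HRE1β*-labelled and 0.250 and 0.173 CPM in WT libraries (log2 fold change 5.54 ± 0.61 (SE), adjusted p = 4.7e-05, edgeR). *HRE1β*-labelled replicate 1 lay above replicate 2 in each of these genes. With at least 10 counts required in every library only 1 member was left to test and 0 were higher. Seed members higher and lower numbered 5 and 0 without *HRE1β*-labelled replicate 1. The summed level of all 18 listed genes was 109 and 33.3 CPM in *HRE1β*-labelled and 3.75 and 2.87 CPM in WT libraries, and the part of seed material in the other results was not tested. Flower and shoot apex markers gave 0 higher genes, and *STM*, of the shoot meristem, was at 5.76 and 6.74 CPM in *HRE1β*-labelled against 9.94 and 8.74 CPM in WT libraries (log2 fold change −0.58 ± 0.18 (SE), adjusted p = 0.022, edgeR). Shoot apex members higher and lower numbered 0 and 0 without *HRE1β*-labelled replicate 1 and 0 and 2 without WT replicate 1. *CRA1* lost the call without WT replicate 1 or 2 and in a fit of both groups alone (adjusted p 8.5e-13 to 0.19) and *STM* without *HRE1β*-labelled replicate 1 and without WT replicate 1 (0.015 to 0.2).

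The *HRE1β*-labelled libraries also differed from the *HRE1α* OX and the *AtRH17*-labelled libraries, in comparisons that contain the same *HRE1β*-labelled libraries. Against *HRE1α* OX, 8.48% of genes were higher and 7.71% lower, with 2.35% and 0.756% of genes past 2-fold. Against *AtRH17*-labelled libraries, in a fit of all 8 libraries, 6.45% were higher and 7.42% lower, with 0.947% and 0.898% of genes past 2-fold. Levels of 4 genes are given for all groups. *RAP2.3* was at 1262 and 1265 CPM in *HRE1β*-labelled, 2561 and 2706 CPM in *HRE1α* OX, 1412 and 1636 CPM in *AtRH17*-labelled and 3628 and 3441 CPM in WT libraries. *PCO1* was at 26.1 and 28.4 CPM in *HRE1β*-labelled, 108 and 108 CPM in *HRE1α* OX, 53.6 and 48.5 CPM in *AtRH17*-labelled and 114 and 98.3 CPM in WT libraries. *GSTU24* was at 49.4 and 57.4 CPM in *HRE1β*-labelled, 13.7 and 15.3 CPM in *HRE1α* OX, 69.6 and 64.9 CPM in *AtRH17*-labelled and 13.6 and 10.5 CPM in WT libraries, and *LHCB3* at 1308 and 1337 CPM in *HRE1β*-labelled, 924 and 945 CPM in *HRE1α* OX, 1483 and 1673 CPM in *AtRH17*-labelled and 599.8 and 599 CPM in WT libraries.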

How the data were processed

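Whole *Arabidopsis* seedlings of 4 groups with 2 libraries each were measured by QuantSeq 3′ mRNA sequencing. Per the labels and the methods of the study, the authors aligned the reads to TAIR10 with Bowtie2 and deposited raw counts per gene, made with Bedtools from unique and multiple alignments together, so near-identical and overlapping genes can share reads, and whether strand was used is not given in the sources used here. By name, 32573 of the 33028 rows could be matched to a single TAIR10.1 locus. The other 455 stayed in the fit under their own names.

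Libraries held 25657217 to 30606058 counts. Intervals of count ratios (exact, 95%) and the floor of 3 counts a library cover counting error only. Genes were filtered with filterByExpr, scaled by TMM and tested with the robust quasi-likelihood test of edgeR 4.0.16 (limma 3.58.1, R 4.3.3) in a fit of WT, *HRE1α* OX and *HRE1β* OX, with Benjamini-Hochberg adjustment over the 22348 genes tested. An adjusted p under 0.05 was called. The standard error is the size of the log2 fold change over the square root of F. In simulated counts for 22043 genes with 200 changed, edgeR called 36 of 50 genes changed 2-fold, 50 of 50 at 3-fold, 4-fold and 6-fold, and 3 others. The simulation gave every gene the same spread beyond counting error and changed no genes at the lowest levels. Its rates therefore need not hold for these data.

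Named were *HRE1* and *AtRH17*, the 12 highest and 12 lowest genes past 2-fold with at least 5 CPM in the higher group and no overlap, up to 8 called and 3 uncalled members of each of the 27 lists (510 genes) and 22 families, and list members with a defining role. The comparison, the lists and this rule were chosen with earlier results of these data known. The tally of named genes over the alternatives is wider and takes in every tested member of the lists. Genes picked after their values were seen are said to be so in the text, and *CCH*, *COPT1*, *COPT6*, *YSL2*, *FRO4*, *FRO5*, *ZIF1*, *ZIP2* and *SPL7* are among them.

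Alternatives were upper-quartile factors, DESeq2 1.42.0, quantile normalization with limma, no filter, at least 10 counts in every library, only the 2 groups or all 8 libraries in the fit, no organelle genes, a replicate block, and each library left out in turn. Summaries and plots were made in Python 3.11.15 with pandas 2.3.3, scipy 1.17.1 and matplotlib 3.10.9.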

Additional observations from a re-analysis of the deposited data

How the results depend on the processing

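The main counts were 2516 higher and 2510 lower genes, and 715 and 351 past 2-fold. Among the alternatives, quantile normalization with limma gave 352 genes higher past 2-fold, outside 1.5 times the main count, and the cause was not tested. Without 1 library, the genes higher at any fold ranged over 1500 to 2650 and those lower over 1491 to 2678, the smallest counts coming without *HRE1β*-labelled replicate 2 (1500 higher) and replicate 1 (1491 lower), where that group has 1 sample that is assumed to vary like the others. The share of higher genes among those called was 50.06% and ran from 48.29% to 57.98% over the alternatives, and past 2-fold it was 67.07% and ran from 59.46% to 71.07%. *HRE1* (main log2 fold change −0.36) was not called with upper-quartile factors (−0.32), quantile normalization (−0.31), both groups alone in the fit (−0.36), or without *HRE1β*-labelled replicate 1 or 2 or WT replicate 1, and without 1 library its value ranged from −0.53 to −0.16. *EBF1*, not called in the main fit (0.06), was lower without WT replicate 1 (−0.31) and higher without WT replicate 2 (0.56). Of 398 named genes that were called, 240 had the call in every alternative that tested them. The other 158 lost it in at least 1, fits without 1 library included. A gene not tested in an alternative, or without an adjusted p there, was not counted as losing the call. The ranges of adjusted p above leave such settings out. The replicate block gave 721 higher and 355 lower genes past 2-fold and 2622 and 2567 at any fold. Same-numbered libraries did not deviate together (r = 0.0583 between *HRE1β*-labelled and WT libraries), so the numbers were not taken to pair them. At an unadjusted p under 0.05, 916 genes were higher and 458 lower past 2-fold. The search of promoters for GCC-box motifs, in both planned forms, was not run because no promoter table was used here. Genes near the floor of 0.098 to 0.1169 CPM are limited by depth.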

Other observations

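Further families had members in both directions. SAUR genes, small auxin-induced genes, had 8 of 71 higher and 8 lower, close to the 11.3% and 11.2% of all genes, with 1 higher and 7 lower past 2-fold, among them *AT1G72430* at 180.3 and 231 CPM in *HRE1β*-labelled and 404 and 465 CPM in WT libraries (log2 fold change −1.08 ± 0.10 (SE), adjusted p = 1.5e-07, edgeR). Cysteine-rich receptor-like kinases had 5 of 26 higher and 2 lower, among them *CRK28* at 8.69 and 9.80 CPM in *HRE1β*-labelled and 27.5 and 28.2 CPM in WT libraries (log2 fold change −1.59 ± 0.13 (SE), adjusted p = 1.8e-09, edgeR). Outside every list and picked after its values were seen, the myrosinase *TGG2* was at 61.5 and 67.4 CPM in *HRE1β*-labelled and 30.3 and 28.9 CPM in WT libraries (log2 fold change 1.12 ± 0.10 (SE), adjusted p = 5.8e-09, edgeR). *AT4G33720*, of the PR1 superfamily, was picked in the same way and was at 7.18 and 5.39 CPM in *HRE1β*-labelled and 89.1 and 33.8 CPM in WT libraries, which did not pass the test (adjusted p = 0.054, edgeR).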
